A study of Zea mays with 217 samples.

Results

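The R2R3 MYB genes described here are the genes of the 9 transcription factors (TFs) of family MYB that were profiled by ChIP-seq in maize leaf cells, taken as targets: MYB4, MYB6, MYB31, MYB37, MYB38, MYB56, MYB62, MYB81 and MYB88. They were taken by the family of the TF, a rule set with earlier results of these data known. Every row of the deposited TF-to-target table that names 1 of them as target was used. Of the 9 genes 8 had a row, among 20067 target genes in all. MYB38 had none. The study expressed 104 TFs of the developing maize leaf, 1 at a time, from a plasmid in leaf protoplasts (cells freed of their walls) of B73 seedlings 1 to 2 weeks old, introduced with PEG. Each TF carried an Avi tag to which a co-expressed ligase adds biotin, and its DNA was recovered on streptavidin beads in 217 libraries, 2 to 4 per TF. The 9 MYB TFs had 20 libraries, 4 for MYB62 and 2 for each of the others. The authors pooled the replicates of a TF before they scored its targets, so the values carry no error between replicates, and library depth is not part of the table.

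An edge is a listed TF and target gene, and in-degree means how many of the 104 TFs listed a gene. The authors' TIP model scored the binding of a TF around each gene's start against that TF's own profile, and pairs with a p-value above 0.05 do not appear. A missing pair therefore means only that the pair was not listed, and not that binding is absent. Since the p-values of 2 TFs are on different profiles, the place of a gene in the TF's own list is given beside them, in percent of that TF's targets, where a small percent is a small p. The TFs were made from plasmids in every library, the groups being TFs and not treatments, so the edges describe where a tagged TF was found in leaf protoplasts and not whether it changed expression. The table holds no expression value against which the cell type could be checked.

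R2R3 MYB proteins bind DNA through a pair of imperfect MYB repeats and form one of the largest TF families of plants. Members of the family steer the phenylpropanoid pathway, which yields lignin and flavonoids, and others act in cell shape, stress and development. In maize, MYB31 is known as a repressor of lignin genes. MYBR proteins, the MYB-related family, mostly carry a single repeat and include clock regulators. The numbers in the maize names do not match those of Arabidopsis genes with the same number, so no role is given for a member on the strength of its number.

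The 9 MYB genes split into 2 that nearly every kind of TF listed and 7 that had 7 TFs or fewer, as did 59% of all target genes. MYB4 (Zm00001d048647) was listed by 80 of 104 TFs and MYB81 (Zm00001d039893) by 63. MYB31 (Zm00001d006236) was listed by 7 TFs, MYB56 (Zm00001d030678) by 4, MYB6 (Zm00001d041576) by 3 and MYB62 (Zm00001d035604) by 2. MYB37 (Zm00001d013399) and MYB88 (Zm00001d048623) had 1 TF each, and MYB38 (Zm00001d032024) had 0. No MYB gene had an in-degree between 8 and 62, a range bounded by MYB31 and MYB81 themselves, in which 7397 target genes (36.9%) lay. MYB4 and MYB81 took 143 of the 161 edges to MYB genes (88.8%), and the other 7 genes shared 18. These 7 are called sparsely listed only beside MYB4 and MYB81, since MYB31 had more TFs than 55.7% of target genes.

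**Figure D1:**
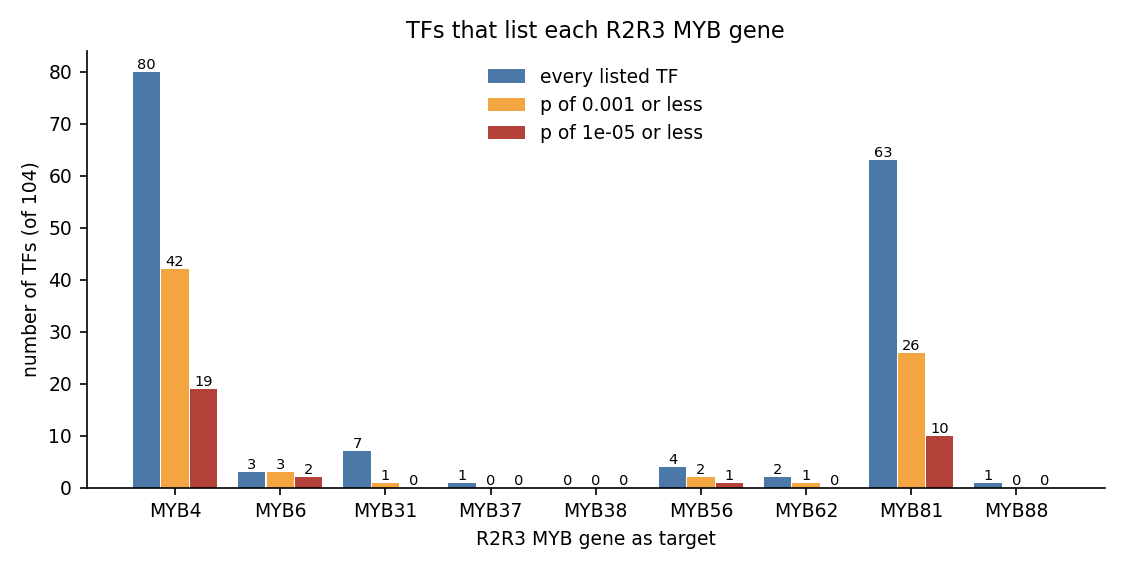
Number of TFs (of 104, vertical axis) that list each R2R3 MYB gene, for all listed pairs (left bar), pairs with a p of 0.001 or less (middle bar) and pairs with a p of 1e-05 or less (right bar). MYB4 has 80, 42 and 19 TFs and MYB81 has 63, 26 and 10, while no other MYB gene has more than 7.

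Over all 9 genes, 161 of 936 possible pairs were listed (17.2%), against 13.1% of all possible TF and target pairs. The 936 include each MYB TF with its own gene, where peaks had been removed. With a p of 0.001 or less, 75 pairs to MYB genes remained (8.01%), against 3.56% of all pairs. The higher share of the MYB genes came from MYB4 and MYB81, since the other 7 genes had 18 edges in all and 7 of them with a p of 0.001 or less. The share over all pairs counts only genes that at least 1 TF listed, while MYB38 with no TF is among the 9. The median in-degree was 3 for the MYB genes (quartiles 1 and 7), against 5 for all target genes (quartiles 2 and 17). For the 95 other profiled TF genes it was higher, 18 (quartiles 4 and 55).

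Beside other genes of profiled TFs, more of the MYB genes had few TFs, while the share with many TFs was no higher. Of the 9 MYB genes 2 (22.2%) had 50 TFs or more, against 27 of the 95 other profiled TF genes (28.4%) and 1459 of all target genes (7.27%). At the lower end, 7 MYB genes (77.8%) had 7 TFs or fewer, against 34 of the other profiled TF genes (35.8%) and 11836 of all target genes (59%). The 10 MYBR genes, of the nearest related family, had in-degrees of 0 to 35 with a median of 6, and none reached 50. The limit of 7 TFs is the in-degree of MYB31 and was chosen after the values were seen, and with 9 genes these shares are a description and were not tested.

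MYB4 had more TFs than 98.5% of target genes, and 273 genes had more than MYB4. Its 80 TFs came from 22 families. The p-values ran down to 5.38e-121 with a median of 0.00045, and 42 edges (52.5%) had a p of 0.001 or less, against 27.2% of all edges in the table. The strong edges were of several families rather than 1. MYBR64, a MYB-related TF with only 462 targets, gave the smallest p (5.4e-121) and had MYB4 in place 12. EREB18, of the AP2/ERF family to which the ethylene response factors belong, listed it 26th of 2477 with a p of 7.7e-20. ZIM1, of the TIFY family that includes the JAZ repressors of jasmonate signalling, listed it 92nd of 1526 with a p of 1.5e-18. The zinc finger TF C3H40 (p of 6.9e-15) and MYBR87 (p of 2.9e-14) completed the 5 smallest p-values. By place in the list the highest was another AP2/ERF factor, EREB198, singled out after its values were seen, which had MYB4 4th of 3133 targets with a p of 2.4e-13.

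MYB81 had more TFs than 95.8% of target genes, and 795 genes had more than it. Its 63 TFs came from 21 families, with a smallest p of 2.58e-09 and a median of 0.00204, and 26 edges (41.3%) had a p of 0.001 or less. The smallest p was that of MAB16, which listed MYB81 138th of 2599 targets. MYBR87 had a p of 1.2e-07 and ZIM3 a p of 2.9e-07 at MYB81, so that a MYB-related TF and a TIFY protein were among the first 5 at this gene too. GLK25, of the GARP-type GLK family in which the regulators of chloroplast development are found, had MYB81 in the highest place of any listing TF, 30th of 2990, with a p of 5.2e-07. The last of the 5 was an R2R3 MYB TF itself, MYB37, with MYB81 209th of 3045 targets and a p of 1.2e-06.

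Being listed by many TFs did not mean a high place in each list. The place of MYB4 ran from 0.128% to 99.3% of a TF's list with a median of 24%, and 20 of its 80 edges (25%) lay in the top 10% of the list, against 9.98% of all edges. MYB81 ran from 1% to 94.2% with a median of 32%, and 10 of its 63 edges (15.9%) were in the top 10%. Below the middle of the list lay 18 edges of MYB4 (22.5%) and 21 of MYB81 (33.3%), against 50% of all edges, as the measure requires. MYB6 was the reverse, with 3 TFs that all placed it between 0.721% and 3.21%. MYB31 lay low in the lists that held it, between 39.2% and 92.6% with a median of 64.3%.

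**Figure D2:**
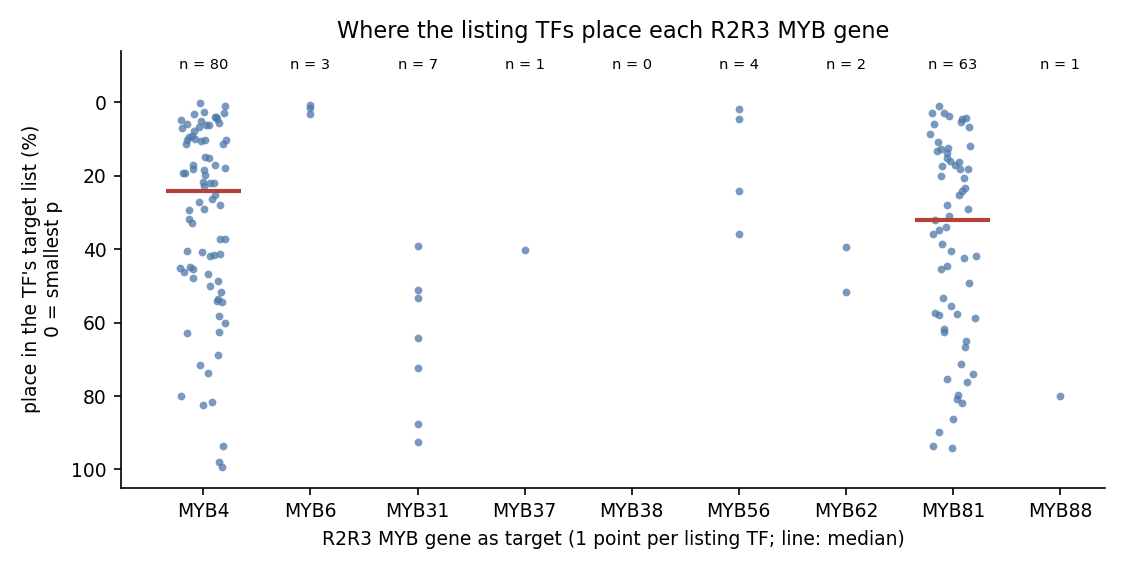
Place of each R2R3 MYB gene in the target list of every TF that lists it (vertical axis, percent of that TF's targets, smallest p at the top), 1 point per TF, with a line at the median for MYB4 and MYB81. The points of MYB4 and MYB81 cover nearly the whole range with medians of 24% and 32%, the 3 points of MYB6 lie at 3.21% or less, and all 7 points of MYB31 lie at 39.2% or more.

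Most families with several profiled TFs listed both MYB4 and MYB81, and a few listed mainly 1 of them. Over all TFs, 76.9% listed MYB4, 60.6% listed MYB81 and 53 TFs listed both, so listing either gene was common. All 6 ZIM proteins and all 3 NAC TFs listed both MYB4 and MYB81. On average the ZIM proteins listed 13.6% and the NAC TFs 15% of all target genes. Whether single families lay above the shares over all TFs was not tested. ZIM proteins have no DNA-binding domain of the usual kind and reach DNA with partner TFs. All 7 homeobox HB TFs, all 6 bZIP TFs and all 5 WRKY TFs, families of development, light and stress responses, listed MYB4. At MYB81 these families gave 4 of 7, 3 of 6 and 3 of 5 TFs. Of the 11 bHLH TFs, 9 listed MYB4 and 8 listed MYB81, and of the 10 MYBR TFs, 8 and 7 did so.

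Few AP2/ERF (EREB) TFs listed MYB81 and few GLK TFs listed MYB4. Of the 14 EREB TFs, 11 listed MYB4 (78.6%) and 3 listed MYB81 (21.4%). At MYB4, 6 of these 11 edges had a p of 0.001 or less, and at MYB81 none did, the smallest being 0.0028. Of the 7 GLK TFs, 1 listed MYB4 (14.3%) and 4 listed MYB81 (57.1%). At the other gene of each pair these families were close to all TFs, of which 76.9% listed MYB4 and 60.6% listed MYB81. The only GLK edge at MYB4 was that of GLK9 with a p of 0.009, while GLK25, GLK52 and GLK11 placed MYB81 at 1%, 2.82% and 3.7% of their lists. GLK9 placed MYB81 low, at 62.6% with a p of 0.019. GLK1, GLK2 and GLK53 listed neither gene. On average an EREB TF listed 13.7% and a GLK TF 12.9% of all target genes, so the families differed little in how much they listed. TFs of a family share a DNA-binding domain and are not independent, and the difference was not tested.

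A count of listing TFs hid differences in strength between families. At MYB4 the bHLH edges were weak, 1 of 9 having a p of 0.001 or less and none being in the top 10% of a list, with a median place of 53.7%. The MYBR edges there were strong, 6 of 8 having a p of 0.001 or less with a median place of 14.6%. At MYB81 the MYBR TFs placed the gene low, with a median of 66.7%. By p the ZIM edges were strong at both genes, 4 of 6 at MYB4 and 5 of 6 at MYB81 having a p of 0.001 or less. By place they were less so, with 2 of 6 at MYB4 and 1 of 6 at MYB81 in the top 10%. The median places of the ZIM edges were 14.7% and 22.9%.

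**Figure D3:**
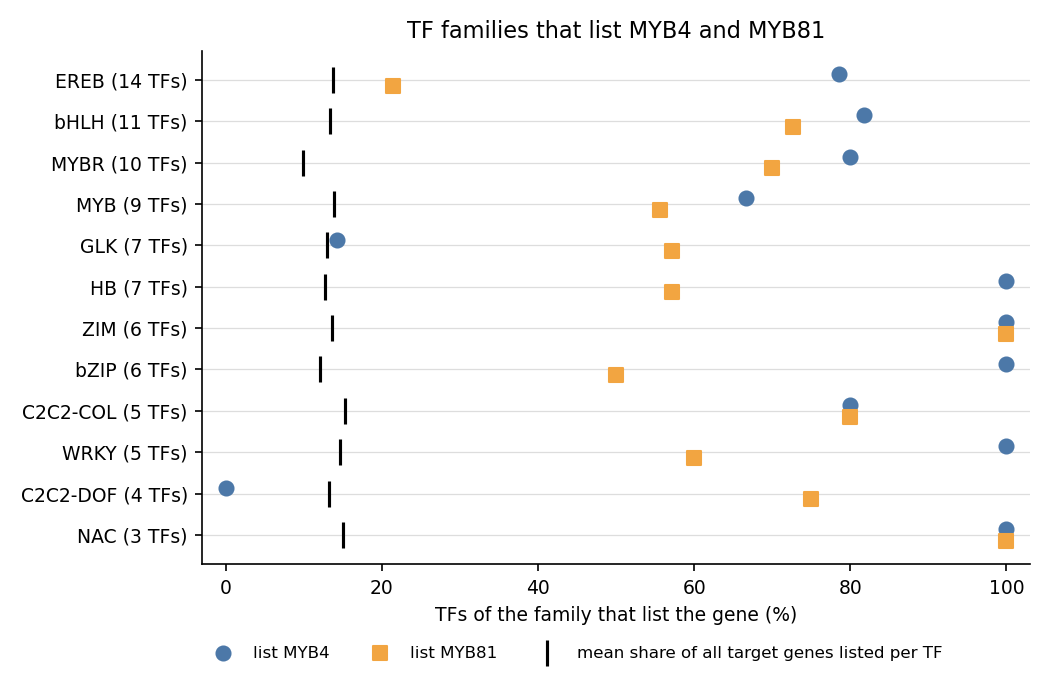
Percent of the TFs of a family that list MYB4 (circles) and MYB81 (squares), for the 12 families with 3 profiled TFs or more, beside the mean percent of all target genes that a TF of the family lists (vertical ticks, 9.87% to 15.2%). ZIM and NAC TFs are at 100% for both genes, EREB TFs at 78.6% for MYB4 and 21.4% for MYB81, GLK TFs at 14.3% and 57.1%, and DOF TFs at 0% and 75%.

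The TFs of MYB4 and MYB81 overlapped in 53, which was 66.2% of those of MYB4 and 84.1% of those of MYB81. These shares were a few points above those over all TFs, since 60.6% of the 104 TFs listed MYB81 and 76.9% listed MYB4. The Jaccard index, the shared TFs divided by those that list either gene, was 0.589, and 0.236 for pairs with a p of 0.001 or less. Of the other TFs, 27 listed MYB4 without MYB81, 10 listed MYB81 without MYB4 and 14 listed neither. MYB81 as TF is among the 27 and MYB4 as TF among the 14, and peaks at their own genes had been removed. MYB4 had the smaller p in 32 of the 53 shared TFs and MYB81 in 21. Fewer TFs had strong edges at both genes, as a stricter limit must give fewer pairs. Of the 53, 13 TFs had a p of 0.001 or less at both. Only 1 TF, the homeobox TF KNOX6, had both genes in the top 10% of its list. Taken singly, 52.5% of the edges of MYB4 and 41.3% of those of MYB81 had such a p. In the top 10% lay 25% and 15.9%.

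Of the 27 TFs that listed MYB4 without MYB81, 8 were EREB TFs, 3 were HB TFs, 3 were bZIP TFs including LIGULELESS2 (LG2, which marks the boundary of blade and sheath), and 2 were the GRAS TFs of the study, GRAS23 and GRAS49. The 10 that listed MYB81 without MYB4 included DOF17, DOF22 and DOF30 and the GLK TFs GLK11, GLK25 and GLK52. The clock regulators LHY1 and ELF3 listed both genes. LHY1 had MYB4 at 6.35% of its list with a p of 3.57e-09, against MYB81 at 79.6% with a p of 0.025. ELF3 had p-values of 1.89e-05 at MYB4 and 0.0012 at MYB81. The PRR TF of the study (TF202) also listed both genes, but in the other order. It had MYB81 at 17% of its list with a p of 0.0012, against MYB4 at 41.6% with a p of 0.0094.

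**Figure D4:**
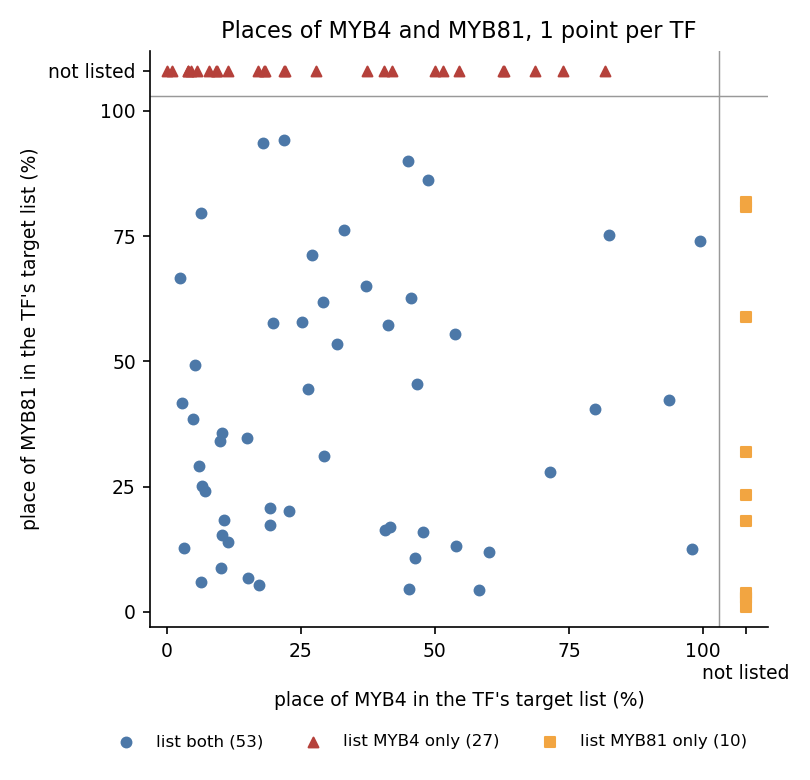
Place of MYB4 (horizontal axis) and of MYB81 (vertical axis) in the target list of each TF, in percent of that TF's targets, 1 point per TF, with TFs that list only 1 of the genes on the outer strips. The 53 TFs that list both are spread over the square, and 1 of them is in the top 10% for both, beside 27 TFs that list only MYB4 and 10 that list only MYB81.

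Read from the side of the TFs, 49 of the 104 listed exactly MYB4 and MYB81 among the MYB genes, 24 listed only MYB4 and 7 listed only MYB81. Another 11 TFs listed none of the 9 genes, among them MYB62, GLK1, GLK2, DOF21 and 3 EREB TFs (EREB17, EREB54 and EREB97). Some of the 11 had short lists, such as bHLH91 with 21 targets and MYBR40 with 161, but EREB17 had 3294. At the upper end, DOF30 and MYB6 listed 4 MYB genes each, and DOF17, DOF22, bZIP38, EREB98 and HMG1 listed 3. No TF listed more than 4.

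The 18 edges to the 7 sparsely listed genes came from 13 TFs, and DOF TFs, 4 of the 104 TFs, gave 7 of them. On average a DOF TF listed 13.2% of all target genes, against 13.1% of all possible pairs over all TFs. DOF proteins are plant TFs with a single zinc finger. All 3 TFs of MYB6 were DOF TFs: DOF17 listed it 21st of 2912 targets with a p of 2.5e-10, DOF30 46th of 2997 with a p of 1.3e-07, and DOF22 98th of 3056 with a p of 1.6e-05. With 3 TFs MYB6 had more than 34.2% of target genes only, yet each of its edges was among the strong ones of the TF concerned. The same 3 DOF TFs gave 3 of the 4 edges of MYB56, with p-values of 4.4e-07 for DOF30, 5.4e-05 for DOF22 and 0.0017 for DOF17. DOF30 alone listed MYB88, 2397th of its 2997 targets with a p of 0.032, near the threshold.

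The DOF edges joined MYB6, MYB56 and MYB81. MYB81 was placed 92nd by DOF30 with a p of 2.3e-06, while DOF22 and DOF17 had p-values of 0.0028 and 0.0035 there. None of the 4 DOF TFs listed MYB4, and DOF21 listed no MYB gene. DOF17, DOF22 and DOF30 together listed 1457 target genes (7.26%), of which 323 had 7 TFs or fewer, and 88 genes had exactly these 3 TFs. MYB6 was 1 of the 88. The 3 TFs belong to 1 family, so their edges to the MYB genes are not independent of each other. MYB6 and MYB56 shared 3 TFs, all of those of MYB6 and 75% of those of MYB56, and all 4 TFs of MYB56 also listed MYB81.

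MYB31, the repressor of lignin genes, was listed mostly by weak edges. Its smallest p was that of bZIP113 (2.4e-04, 805th of 2053 targets), and this was its only edge with a p of 0.001 or less. Another 2 bZIP TFs listed it, bZIP38 with a p of 0.0079 and LG2 with a p of 0.026, so that 3 of its 7 TFs were bZIP TFs. The study had 6 bZIP TFs among 104, which listed 12.1% of all target genes on average. The rest were MYB6 (p of 0.016), EREB98 (p of 0.017), MYB4 (p of 0.022) and HAG7, a GNAT-family protein (p of 0.041). Of these 7 TFs 6 also listed MYB4 (85.7%), a gene that 76.9% of all TFs listed. The exception was MYB4 itself, for which peaks in its own locus had been removed.

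MYB62 was listed by GATA12, a zinc finger TF, with a p of 7.0e-05 in place 733 of only 1415 targets, and by GLK53 with a p of 0.0025. These 2 TFs listed no other MYB gene. MYB37 was listed by HMG1, a high mobility group protein, with a p of 0.0092 in place 1240 of 3078. MYB38 was listed by no TF, although as a TF it had the most targets of the 9 MYB TFs, 3317. As TFs the MYB proteins had 2720 to 3317 targets, apart from MYB62 with 1213, while the in-degrees of their genes ran from 0 to 80.

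MYB TFs and other TFs did not differ detectably in the share of MYB genes they listed. Leaving out each TF's own gene, the 9 MYB TFs listed 14 of 72 possible pairs (19.4%), against 13.8% of all target genes listed by the MYB TFs. The other 95 TFs listed 147 of 855 possible pairs (17.2%), against 13.0% of all target genes listed by them. The MYB TFs thus listed on average 2.25 percentage points more of the MYB genes than the other TFs did, and the exact two-sided permutation test over TFs gave p = 0.52. The sign of this difference depended on single TFs and on the threshold. It was -1.57 points without MYB6 as TF (p = 0.64, exact permutation) and 4.68 points without MYB62 as TF (p = 0.17, exact permutation). For pairs with a p of 0.001 or less it was -2.75 points (p = 0.35, exact permutation). Own genes left out, a MYB TF was scored out of 8 genes and any other TF out of 9. With own genes kept, the difference was only 0.091 points (17.3% against 17.2%). The permutation test takes TFs as independent, which TFs of 1 family may not be, so it gives no firm verdict on the family.

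Of the 14 edges 11 went to MYB4 and MYB81, and the other 3 to MYB31 and MYB56. The strongest were those of MYB37, which listed MYB81 with a p of 1.23e-06 (6.86% of its list) and MYB4 with a p of 7.35e-05 (15.1%). MYB38 listed MYB81 with a p of 0.00062 and MYB4 with a p of 0.011. MYB81 as TF listed MYB4 with a p of 0.00069, 661st of 3000 targets, whereas MYB4 as TF did not list MYB81. These were the 4 edges with a p of 0.001 or less, namely both of MYB37, MYB38 to MYB81, and MYB81 to MYB4.

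The remaining MYB-to-MYB edges had a p above 0.001, a limit that 27.2% of all edges met. Their places ran from 27.9% (MYB31 to MYB81) to 93.6% (MYB6 to MYB4) of the TF's list. MYB6 had the most MYB targets, with p-values of 0.0082 at MYB56, 0.011 at MYB81, 0.016 at MYB31 and 0.045 at MYB4. MYB31 listed MYB81 with a p of 0.0037 and MYB4 with a p of 0.027. MYB56 listed only MYB4 (p of 0.0077), MYB88 only MYB81 (p of 0.02) and MYB4 only MYB31 (p of 0.022). MYB62 listed no MYB gene. MYB4 and MYB31 were the only MYB pair that listed each other, and MYB31 to MYB81, MYB81 to MYB4 and MYB4 to MYB31 formed the only cycle of 3 genes. No MYB TF listed its own gene, but peaks in the own locus had been removed because of the plasmid, so self-binding could not be read from the table.

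**Figure D5:**
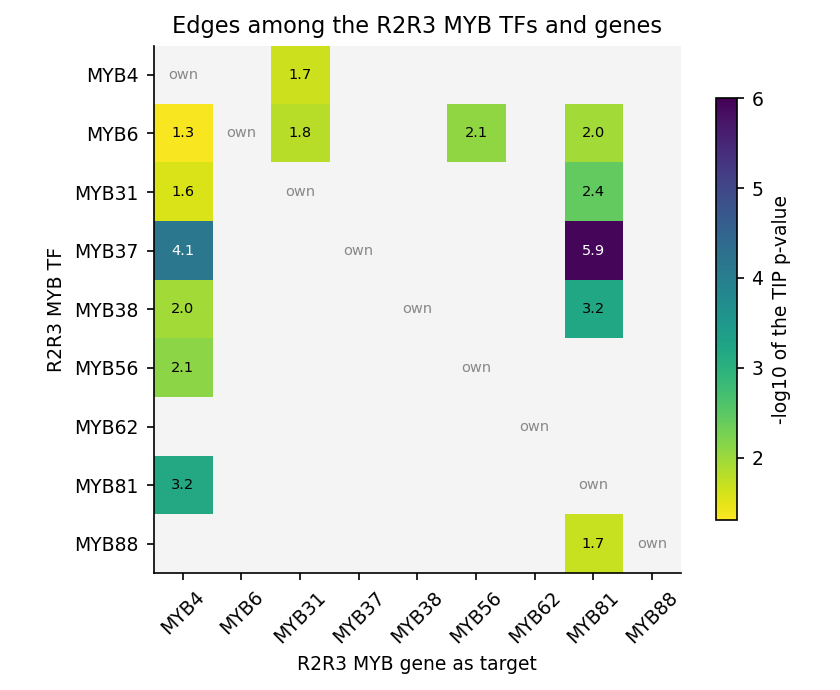
Edges from each R2R3 MYB TF (rows) to each R2R3 MYB gene (columns), coloured and labelled by -log10 of the TIP p-value, with unlisted pairs in grey and own genes marked. The 14 edges fill parts of only 4 columns, 11 of them those of MYB4 and MYB81, and MYB37 to MYB81 (p of 1.23e-06) is the strongest.

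Edges in both directions between a MYB gene and other TFs were present at MYB4, MYB81 and MYB31. Of the 80 TFs that listed MYB4, 25 (31.2%) had their own gene listed by the MYB4 TF, which listed 28 of the 103 other profiled TF genes (27.2%). Of the 63 TFs of MYB81, 15 (23.8%) had their gene listed by the MYB81 TF, which also listed 28 of 103 (27.2%). Both shares thus lay within a few points of what the TF listed among all profiled TF genes. By the larger of the p-values, the strongest pair of MYB4 in both directions was with ZIM27, with a p of 1.35e-05 to MYB4 and 1.15e-11 back. The next of MYB4 was with EREB147, with p-values of 7.65e-05 to MYB4 and 6.59e-06 back. At MYB81 the strongest such pairs were with NAC23 (3.39e-05 to MYB81 and 2.29e-08 back) and with GLK52 (8.41e-06 to MYB81 and 9.00e-05 back). MYB31 had 2, with EREB98 and MYB4.

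MYB4 and MYB81 differed in what lay at the neighbouring gene numbers. A peak between 2 starts can count for both genes, and gene numbers mostly follow the order on the chromosome without proving it. Zm00001d048646, 1 number below MYB4, was listed by 72 TFs, 68 of which also listed MYB4, with the smaller p at MYB4 in 40 and at the neighbour in 28. Zm00001d048648, 1 number above, was listed by 33 TFs, all of which listed MYB4, with the smaller p at MYB4 in 32. In all, 71 of the 80 TFs of MYB4 (88.8%) were also at a neighbouring number, and 9 were not. MYB81 was unlike it, since both its neighbouring numbers had 0 TFs. Among the 1459 target genes with 50 TFs or more, the median share of TFs also at a neighbouring number was 45.8%, 19.7% were at or above the share of MYB4, and 175 (12%) had none, as MYB81. For MYB4 the table cannot tell which of the genes the binding belongs to, and whether that sets its in-degree was not tested.

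Among the sparsely listed genes, MYB31 was the one that shared most of its TFs with a neighbouring number. Zm00001d006237, next to MYB31, had 4 TFs, and all 4 were among the 7 of MYB31. At MYB62 and MYB37 the busier neighbours, Zm00001d035603 with 39 TFs and Zm00001d013398 with 23, had none of the TFs of the MYB gene. On its other side MYB62 shared 1 of its 2 TFs with Zm00001d035605, which had 3.

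Among 7268 genes with 10 TFs or more, the gene whose listing TFs were most like those of MYB4 was Zm00001d024621, with 87 TFs, 77 of them shared, and a Jaccard index of 0.856. For MYB81 it was Zm00001d043515, with 69 TFs, 56 of them shared, and an index of 0.737. Both are descriptions over the same 104 TFs and rise with in-degree, since genes that most TFs list must share many of them.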

How the data were processed

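ChIP-seq was made of 104 TFs in 217 libraries. The authors aligned reads to B73 RefGen_v4 with Bowtie2 2.2.5, filtered them with SAMtools 1.3, ran the SPP peak caller with input as control, subtracted blacklisted regions and the locus of the TF itself, and selected reproducible peaks by IDR. TIP, whose version could not be found, then weighed the peaks around each gene's start. The paper states a threshold of 5% FDR for the targets. The deposited values are labelled p-values, 1 per TF and target gene, 272627 in all, with replicates pooled. The largest is 0.049. Whether these values were adjusted for multiple testing is not stated. Edges near 0.05 therefore cannot be taken as raw p-values that passed 5% FDR. Distal peaks do not enter the deposited values, and depth per library was not used here.

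TFs were named and put into families by the study's list of TFs, and the MYB genes were matched by gene identifier. Edges were counted and placed in each TF's list by p. The 9 MYB TFs and the other 95 were compared by an exact two-sided permutation test of the percent of MYB genes listed, own genes left out. The test was tried on simulated data with independent values only. TFs of a family resemble each other, so the test treats as independent what may not be. Calculations used Python 3.11.15, numpy 2.4.6, pandas 2.3.3 and scipy 1.17.1. Alternatives were p limits of 0.001 and 1e-05, the 1000 strongest targets per TF, leaving out the 3 TFs with under 500 targets, the share relative to all target genes, own genes kept, MYBR TFs left out, each MYB TF or gene left out, and overlap over the smaller set.

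The members and lists were chosen with earlier results of these data known. Named are all 9 genes, per gene the 5 TFs of smallest p and every MYB TF, the TFs that list the most MYB genes, the most alike gene and the neighbouring gene numbers. TFs named beyond this rule were chosen after their values were seen. RefSeq entries were found for 6 of the 9 genes by older identifier and gave no further names. RefSeq is on another build, so no coordinates are given, and the planned comparisons of promoter motifs and proteins were not run.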

Additional observations from a re-analysis of the deposited data

How the results depend on the processing

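The 161 edges to MYB genes became 75 with a p of 0.001 or less, 32 with a p of 1e-05 or less and 94 among the 1000 strongest targets per TF, and the 14 MYB-to-MYB edges became 4, 1 and 6. The Jaccard index of MYB4 and MYB81 was 0.589 and became 0.236, 0.115 and 0.288 under the same limits, while the shared TFs over the smaller set gave 0.841. Fewer pairs enter each of these counts by construction. The difference between MYB TFs and other TFs (2.25 percentage points) turned to -2.75, -2.24 and -1.96 under the 3 limits, with exact permutation p-values of 0.35, 0.38 and 0.52. It ranged from -1.57 without MYB6 as TF to 4.68 without MYB62 as TF, and was -0.0334 without MYB31 as gene. With own genes kept it was 0.091. The cause was not tested. Over its 25 alternatives the p ran from 0.17 to 1, and 0 were under 0.05. Leaving out TFs with under 500 targets left 159 edges. MYB4 and MYB81 kept the highest in-degrees of the 9 genes under every limit, with 42 and 26, 19 and 10, and 50 and 35 TFs.

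No paired analysis was possible because the replicates of each TF were pooled before the p-values were made, and for the same reason leaving out single libraries was not run. The table holds pairs with a p under 0.05 only, and weaker binding at the 7 sparsely listed genes was not detectable.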
